A study of Homo sapiens with 9 samples.

Results

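The CBL family consists of CBL, CBLB and CBLC, ubiquitin ligases that act on activated receptor tyrosine kinases. The guides described here are those whose target gene was CBL, CBLB or CBLC in the deposited table. There were 30 of them, 10 per gene, among 11170 guides against 1117 genes. All 30 reached 10 counts in 3 or more of the 9 libraries, the minimum for the test, as did 10337 guides in all.

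The pool was screened in U251, an established human glioblastoma line, which carried the sgRNAs stably. The 9 libraries were DNA from cells grown in DMEM with serum at 0, 200 or 1500 µM temozolomide, with 3 libraries at each dose, numbered 1 to 3 in their titles. Temozolomide is an alkylating drug used against glioma, and the treatment lasted 72 hours. The doses are named here as in the titles, since the protocol text writes nM for the same numbers and the unit is not settled. The labels state neither the nuclease nor whether a number marks a separate culture, so a p-value covers no more than the variation among these libraries, part or all of which may be technical. A guide's level is its share of the sequenced guides, and so of the cells that carried it. It is no measure of the target gene's expression.

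CBL proteins bind phosphorylated tyrosines on active receptors through an amino-terminal domain and recruit a ubiquitin-conjugating enzyme through a RING finger. Receptors ubiquitinated in this way, such as EGFR, MET or the PDGF receptors, are taken up and sorted to the lysosome, which ends their signal. CBL is expressed in most tissues, CBLB is best known for restraining T-cell activation, and CBLC is a shorter protein found mainly in epithelia. EGFR signalling is often raised in glioblastoma. The deposited table names guides by gene and number and pairs no sequence with them, so no guide sequence is given.

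Total counts were 1852340 to 2790563 per library, or 166 to 250 counts per guide on average. Levels are given as CPM, a guide's counts set to the same total for each library with edgeR's TMM factors. This scaling takes account of UBE2A.7, a single guide that held 0.155 to 18.6% of a library's counts. A guide at 0 counts in a library could hold up to 3 counts there, which is 1.06 to 1.83 CPM. Such limits cover counting error only.

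Temozolomide was not found to change the summed level of CBL, CBLB or CBLC guides, nor that of any single guide of the family. The clearest difference among their levels was between libraries of different replicate number. At 1500 against 0 µM, 8 of 10 CBLB guides, 3 of 10 CBL guides and 6 of 10 CBLC guides had a log2 fold change above 0, against 43.9% of all tested guides. None of the 3 genes passed the test, and these counts moved with single libraries.

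Without drug, the summed CBL level was 2031, 1556 and 615 CPM in replicates 1, 2 and 3. At 200 µM it was 1163, 1527 and 647 CPM, and at 1500 µM it was 1479, 1474 and 530.1 CPM. Replicate 3 was the lowest at every dose, and the ranges of the doses overlapped. The means were 1401 ± 720.4, 1112 ± 442 and 1161 ± 547 CPM (SD, n = 3) at 0, 200 and 1500 µM.

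CBLB, the family member that restrains T-cell receptor and co-stimulation signals, had the lowest mean of the 3 genes at each dose. Its sum was 502, 1050.3 and 455 CPM at 0 µM, 605, 992 and 554 CPM at 200 µM, and 673, 889 and 542 CPM at 1500 µM, for replicates 1, 2 and 3. Replicate 2 was the highest at every dose. The means were 669 ± 331, 717 ± 239.8 and 701 ± 175 CPM (SD, n = 3), with full overlap between doses.

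CBLC, the short epithelial member, had summed levels of 2292, 875 and 589.6 CPM at 0 µM for replicates 1, 2 and 3. The values were 1452, 886 and 492 CPM at 200 µM and 1615, 900.1 and 560.2 CPM at 1500 µM. The order of the replicates was the same at the 3 doses, with replicate 1 the highest. The means were 1252 ± 912, 944 ± 483 and 1025 ± 538 CPM (SD, n = 3).

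At 0 µM the mean level put CBL guides at percentile 86.8, CBLC guides at 78.6 and CBLB guides at 27.2 of all 1117 genes. The median gene lay at 909 CPM. The order of the 3 genes did not hold in each library: CBLC was above CBL in replicate 1, and CBLB was above CBLC in replicate 2. Neighbours in this order therefore did not differ beyond their spread.

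The replicate number accounted for most of the variation of each member. Of the sum of squares of the log2(CPM + 1) levels over the 9 libraries, it held 90.7% for CBL, 89.3% for CBLB and 94.0% for CBLC, against a median of 81.2% over all genes. The dose held 3.15%, 2.89% and 2.997%, against a median of 6.49%. Among single guides of the family, the median share of the replicate number was 78.1% (73.0% over all tested guides). The share exceeded 50% for 23 of the 30 guides, and no such count was made over all tested guides. The median share of the dose was 4.36% for family guides and 7.04% for all tested guides.

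Some abundant guides differed widely between replicates. CBL.1, the most abundant CBL guide over the 9 libraries, had 2569, 1703 and 2746 counts in replicate 1 at 0, 200 and 1500 µM. It had 40, 67 and 39 counts in replicate 2 and 196, 490 and 361 in replicate 3. It thus made up 77.1% of all CBL counts in replicate 1 at 0 µM (exact Clopper-Pearson 95% interval 75.6 to 78.5%, for counting error only). In replicate 1 its share was 64.7% at 200 µM and 66.6% at 1500 µM. In replicate 2 the leading guide was instead CBL.6, with 1150, 792 and 941 counts at 0, 200 and 1500 µM. CBL.6 had 76, 65 and 85 counts in replicate 1 and only 12, 26 and 0 counts in replicate 3.

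CBLC showed the same kind of pattern. CBLC.2, its most abundant guide, had 2349, 1394 and 2004 counts in replicate 1 at 0, 200 and 1500 µM. It had 89, 115 and 100 in replicate 2, and 26, 46 and 101 in replicate 3. CBLC.3 led in the other replicates, with 531, 607 and 669 counts in replicate 2 and 268, 338 and 309 in replicate 3, against 17, 40 and 6 in replicate 1. CBLC.2 thus led in replicate 1 at every dose, and CBLC.3 was low there and led in replicates 2 and 3. In replicate 3, however, CBLC.3 held at most 24.2% of CBLC counts.

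CBLB counts were spread more evenly over its guides. Its most abundant guide, CBLB.10, had 300, 265 and 341 counts in replicate 1 at 0, 200 and 1500 µM, 880, 674 and 647 in replicate 2, and 208, 388 and 107 in replicate 3. The share of the leading guide in CBLB counts ranged from 17.7% in replicate 3 at 1500 µM to 40.3% in replicate 2 at 0 µM. The effective number of guides (the squared sum of the counts over the sum of their squares) was 4.32 to 8.27 for CBLB. For CBL it was 1.66 to 5.90, and for CBLC it was 2.35 to 7.20. The median over all genes was 4.26 to 5.24 in the 9 libraries.

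The comparison of 1500 with 0 µM asked whether carriers of these guides became more or less frequent at the highest dose. For CBLB the sum differed by a log2 fold change of 0.21 ± 0.37 (SE), and for CBL and CBLC by -0.14 ± 0.50 and -0.15 ± 0.55. The adjusted p of edgeR's quasi-likelihood test was 1.00 for each of the 3 genes, and 0 of 1117 genes (0%) passed, with 3 at an unadjusted p under 0.05. The 95% intervals of the log2 fold changes were -0.63 to 1.05 for CBLB, -1.27 to 1.001 for CBL and -1.41 to 1.12 for CBLC. This fit, which left the replicate number out, did not exclude changes within these intervals.

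Libraries of the same replicate number varied together, and with the number as a block the intervals narrowed. The blocked log2 fold change was 0.27 ± 0.18 (SE, interval -0.11 to 0.65) for CBLB, -0.12 ± 0.15 (-0.44 to 0.20) for CBL and -0.05 ± 0.16 (-0.39 to 0.28) for CBLC. The edgeR adjusted p was 0.810, 0.922 and 0.966, and 1 of 1117 genes (0.0895%), none of the family, passed. Within replicates 1, 2 and 3 the CBLB sum differed by 0.42, -0.24 and 0.25 on the log2(CPM + 1) scale. The CBL sum was lower in all 3 (-0.46, -0.08 and -0.21), as were 30.1% of all genes, and the CBLC sum differed by -0.51, 0.04 and -0.07.

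Among CBLB guides at 1500 against 0 µM, the 10 log2 fold changes had a median of 0.39 (SD 0.38 over guides, range -0.60 to 0.69). Of all tested guides 43.9% were higher, and of all genes 1.88% had at least 8 higher guides. That minimum of 8 was set at the CBLB value after it was seen. With the block 9 of 10 CBLB guides were higher, against 48.9% of all guides, and 40 of 1117 genes had at least 8. DESeq2 with the block gave 8 of 10 for CBLB. The direction was not the same in every replicate: 8 of 10 guides were higher in replicate 1 and 9 of 10 in replicate 3, but 4 of 10 in replicate 2. The count also moved with single libraries, from 5 higher guides without replicate 1 at 0 µM to 10 without replicate 2 at 0 µM, and it was 6 without replicate 2 or 3 at 1500 µM.

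CBLB.6 had the lowest p among the higher CBLB guides. In replicates 1, 2 and 3 it had 45, 26 and 73 counts without drug. The counts were 162, 34 and 26 at 200 µM, then 142, 60 and 106 at 1500 µM. All 3 pairs were higher at 1500 than at 0 µM, although the ranges of the CPM levels overlapped. Its log2 fold change was 0.69 ± 0.83 (SE), with an edgeR adjusted p of 1.00. CBLB.8 and CBLB.9 were also higher within every replicate, with blocked log2 fold changes of 0.81 ± 0.54 and 0.68 ± 0.85 (SE).

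CBLB.10, the most abundant guide of the gene, was 1 of 2 CBLB guides below 0 at 1500 against 0 µM, with CBLB.4 (-0.11 ± 0.97, SE), and the only one of the 10 with the block. Its level was 183, 424 and 102 CPM at 0 µM and 122, 309 and 44.8 CPM at 1500 µM, lower in every replicate. The log2 fold change was -0.60 ± 0.92 (SE) without the block and -0.75 ± 0.31 with it. The blocked unadjusted p was 0.0447 in edgeR, with an adjusted p of 0.999, and 2.61% of all tested guides had a blocked unadjusted p under 0.05. Without CBLB.10, and without the most abundant guide of every other gene, the CBLB sum differed by 0.41 ± 0.34 (SE), and by 0.47 ± 0.20 with the block (edgeR adjusted p = 0.999 and 0.727).

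For CBL at 1500 against 0 µM, 7 of 10 guides were lower, with a median log2 fold change of -0.22 (SD 0.51 over guides), against a median of -0.08 over all tested guides, of which 43.9% were higher. With the block 4 of 10 CBL guides were higher (median -0.08), against 48.9% of all guides (median -0.02). The lowest p among lower guides belonged to CBL.8, a scarce guide with 49, 12 and 22 counts without drug. It had 42, 27 and 33 counts at 200 µM, then 10, 9 and 26 at 1500 µM. Its log2 fold change was -1.32 ± 1.42 (SE), with nearly all of the difference in replicate 1. Among higher guides the lowest p was that of CBL.9, at 0.38 ± 0.99 (SE). Its counts of 52, 320 and 131 at 0 µM and 94, 526 and 112 at 1500 µM differed more between replicates than between doses. The number of higher CBL guides ran from 1 without replicate 2 at 1500 µM to 7 without replicate 2 at 0 µM, so the side to which most CBL guides fell turned with single libraries.

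CBLC guides were split at 1500 against 0 µM, with 6 of 10 higher and a median log2 fold change of 0.02 (SD 0.39 over guides). With the block 6 of 10 were higher as well (median 0.08). Each omission of a single library gave fewer, from 3 of 10 without replicate 2 at 1500 µM (median -0.25) to 5 of 10. CBLC.9 had the lowest p among lower guides, at -0.49 ± 0.90 (SE). It had 208, 50 and 46 counts at 0 µM and 97, 115 and 87 at 1500 µM, so that it was lower in replicate 1 and higher in the others, and its blocked value was 0.03 ± 0.73. CBLC.1, the higher guide of lowest p, had 358, 105 and 186 counts at 0 µM and 984, 27 and 180 at 1500 µM. Its log2 fold change of 0.28 ± 1.16 (SE) turned to -0.46 ± 0.53 with the block. CBLC.4 and CBLC.6 were lower within every replicate, with blocked values of -0.74 ± 0.44 and -0.43 ± 0.36 (SE).

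Over the 30 guides, 0 passed at 1500 against 0 µM in edgeR, with or without the block, and 0 of 10337 guides (0%) passed in all. Of the family 0 had an unadjusted p under 0.05 without the block, against 21 (0.203%) of all tested guides. DESeq2 passed 0 guides of the family with or without the block. It passed 6 guides in all with the block (0.058%). Of the family 3 guides were higher and 4 lower within all 3 replicates, or 10.0% and 13.3%, against 12.1% and 12.6% of all tested guides. In 0 of the 30 did the 3 levels at 1500 µM lie wholly above or below the 3 at 0 µM, which held for 1.43% and 1.27% of all tested guides.

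The comparison of 200 with 0 µM shares the libraries at 0 µM with the one above. The CBLB sum had a log2 fold change of 0.21 ± 0.37 (SE), CBL of -0.22 ± 0.45 and CBLC of -0.29 ± 0.55, with an edgeR adjusted p of 0.998 each and 0 of 1117 genes (0%) past the threshold (0 also at an unadjusted p under 0.05). With the block the values were 0.26 ± 0.15 (interval -0.09 to 0.62), -0.15 ± 0.17 (-0.55 to 0.25) and -0.19 ± 0.15 (-0.54 to 0.15), and the adjusted p was 0.811, 0.840 and 0.811. The 95% intervals without the block were -0.64 to 1.07, -1.25 to 0.80 and -1.56 to 0.98. None of the sums had 1 direction in all 3 replicates. Of the 30 guides 2 were higher and 2 lower in all 3, or 6.67% each, against 10.1% and 13.9% of all tested guides.

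At 200 µM 7 of 10 CBLB guides were higher (median log2 fold change 0.20), but 4 of 10 with the block, against 44.4% of all tested guides. Without the block 42.5% of all tested guides were higher. For CBL 3 of 10 were higher (median -0.14), and 4 of 10 with the block (median -0.09). For CBLC 2 of 10 were higher (median -0.25), but 6 of 10 with the block (median 0.05), so the direction turned. With single libraries left out, the number of higher CBL guides ran from 0 without replicate 2 at 200 µM to 6 without replicate 2 at 0 µM or without replicate 1 or 3 at 200 µM. The number of higher CBLC guides ran from 2 to 6, the latter without replicate 3 at 200 µM, and that of CBLB guides from 4 without replicate 1 at 0 µM or replicate 2 at 200 µM to 8 without replicate 2 at 0 µM. CBLB.1 was the higher guide of lowest p. It had 10, 20 and 80 counts at 0 µM and 57, 32 and 177 at 200 µM, higher in every replicate, with a log2 fold change of 0.93 ± 1.15 (SE). At 1500 µM its counts were 46, 19 and 113. CBLB.8 was again higher in every replicate (174, 154 and 14 counts at 0 µM against 339, 263 and 93 at 200 µM), with a blocked value of 1.12 ± 0.50.

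The lower guides of lowest p at 200 µM were CBL.10 for CBL, CBLB.2 for CBLB and CBLC.7 for CBLC, at -0.61 ± 1.20, -0.48 ± 1.01 and -0.84 ± 0.90 (SE). CBLC.7 had 80, 49 and 141 counts at 0 µM and 57, 26 and 114 at 200 µM and was lower in every replicate. At 1500 µM it had 113, 153 and 110 counts, or 40.6, 73.1 and 46.1 CPM, against 48.7, 23.6 and 69.3 CPM at 0 µM. The higher guides of lowest p were CBL.2 (0.51 ± 0.96) for CBL and CBLC.1 (0.16 ± 0.93) for CBLC. In edgeR each of these guides had an adjusted p of 1.00, 0 of the 30 passed with or without the block, and 0 of 10337 guides (0%) passed in all, with 14 (0.135%) at an unadjusted p under 0.05.

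Between the treated doses, at 1500 against 200 µM, the log2 fold changes of the sums were 0.08 ± 0.43 for CBL, -0.01 ± 0.29 for CBLB and 0.13 ± 0.49 for CBLC (SE, edgeR adjusted p = 0.999 each). None of the 1117 genes (0%) passed, and 1 had an unadjusted p under 0.05. With the block the intervals were -0.24 to 0.27, -0.28 to 0.28 and -0.10 to 0.36. The CBLC sum was higher within all 3 replicates, as were 12.2% of all genes. Of the 30 guides 0 passed in edgeR, with or without the block, or in DESeq2 with the block, which passed 0.873% of all guides with an adjusted p. DESeq2 gave only 15 of the 30 an adjusted p in that fit. Of the 30, 2 had levels that did not overlap between these doses. CBL.8 was lower at 1500 µM (3.59, 4.30 and 10.9 CPM against 18.5, 13.98 and 11.6), and CBLC.7 was higher (40.6, 73.1 and 46.1 CPM against 25.2, 13.5 and 40.2). That is 3.33% of family guides in each direction, beside 1.17% of all tested guides that were lower and 1.53% that were higher in this way.

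Of the 270 values of family guides 4 were counts of 0. In each library 1120 to 1696 of all 11170 guides were at 0, including guides below the minimum for the test. CBL.6 was at 0 in replicate 3 at 1500 µM. CBL.5, CBLB.9 and CBLC.10 were at 0 in replicate 1 at 200 µM, where a count of 0 allows up to 1.32 CPM. In replicate 1 at 0 µM these 3 guides had 11, 10 and 16 counts, and at 1500 µM 36, 29 and 101 counts. They were thus present on both sides of the dose at which they were missed. Of the 29 family guides with at least 10 counts in both of these other libraries, 3 were thus at 0 in replicate 1 at 200 µM. The same held for 242 of 8516 such guides in all (2.84%).

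Ratios within a library do not depend on its scaling. The log2 ratio of CBLB to CBL sums was -2.02, -0.57 and -0.44 at 0 µM and -1.14, -0.73 and 0.03 at 1500 µM in replicates 1, 2 and 3. It was higher at 1500 µM in replicates 1 and 3 and lower in replicate 2. The difference of the means was 0.40 (exact two-sided permutation p = 0.700, adjusted p = 0.840 over 6 tests), and the smallest p that 3 against 3 libraries can give is 0.1. CBLC to CBL differed by 0.07 and CBLC to CBLB by -0.32 at 1500 µM. At 200 µM the differences were 0.41, -0.05 and -0.46 for CBLB to CBL, CBLC to CBL and CBLC to CBLB, and the exact permutation p was at least 0.700 in each of the 6 tests. With the libraries paired by replicate number, an exact two-sided sign-flip permutation test, added after the data were seen, gave p of at least 0.5 in each of the 6, where 3 pairs cannot go below 0.25. Without the most abundant guide of each gene, 2 of the 6 ratios moved one way in all 3 replicates, both at 200 µM. CBLB to CBL was higher by 0.79, 0.08 and 0.37, and CBLC to CBLB differed by -0.65, -0.05 and -0.52 (exact paired permutation p = 0.25 each, the smallest that 3 pairs can give, adjusted p = 0.600). With 3 libraries a dose, neither test could pass the threshold, so they leave undecided whether the genes differ in response.

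The pool also held other genes around the family. Among ubiquitin-conjugating enzymes of the UBE2D, UBE2E and UBE2L classes, which include partners of CBL proteins, 9 of 9 were measured. Of these enzymes 0 passed the test in either direction at 1500 against 0 µM. Their median log2 fold change was -0.18, with 3 of 9 above 0, against -0.03 over all genes. UBE2L3, the enzyme known as UbcH7, had -0.42 ± 0.42 (SE), UBE2D1 -0.23 ± 0.27 and UBE2E1 0.24 ± 0.31. Of 40 listed receptors and signalling partners only EGFR and LYN were measured here. EGFR, a classical target of CBL, had a log2 fold change of 0.12 ± 0.35 (SE), and LYN, a Src-family kinase, of -0.10 ± 0.39.

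Of 34 genes listed for the endocytic sorting of ubiquitinated receptors 8 were measured, and 0 passed in either direction (median 0.03, 4 of 8 above 0). For this and the next lists, the median over all genes was -0.03. TSG101, the ESCRT-I subunit that binds ubiquitinated cargo, had -0.33 ± 0.41 (SE), its partner MVB12A -0.35 ± 0.42, and TOLLIP, an endosomal adaptor, 0.20 ± 0.33. Of 31 other ligases listed for receptor tyrosine kinases or for CBL proteins, all were measured, 0 passed, and 9 of 31 were above 0 (median -0.16). SOCS1, a SOCS-box inhibitor of JAK signalling, had 0.85 ± 0.44 (SE), SOCS2 -0.57 ± 0.41, and RNF126, a RING ligase, -0.48 ± 0.29. Of 16 symbols listed for ligases and partners in T-cell tolerance, which give MARCH1 and MARCH8 under their newer names too, 14 were measured (2 of them also in the previous list), 0 passed, and 3 of 14 were above 0 (median -0.06). MARCH1, now named MARCHF1, had -0.53 ± 0.57 (SE), RC3H1 -0.37 ± 0.31 and RNF128 -0.27 ± 0.31. With the block, too, 0 genes of these lists passed in any pair of doses.

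CBLL1 (Hakai) and ZNF645, now named CBLL2, are CBL-like ligases that are not counted among the 3 members. Their sums were 1457 ± 267 and 2029 ± 549 CPM at 0 µM and 1245 ± 277 and 1853 ± 518 CPM at 1500 µM (SD, n = 3), and neither passed (log2 fold changes of -0.08 ± 0.32 and -0.0018 ± 0.36, SE).

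Genes with the most similar pattern over the 9 libraries were sought by the root mean square difference of their centred log2 levels. For CBL they were UBE2L6, C1orf86 (now FAAP20) and HACE1, at 0.17, 0.19 and 0.20. For CBLB they were EGFR, FBXO40 and RMND5A, at 0.13, 0.14 and 0.16, and for CBLC they were UBXN2A, UBE2C and WHSC1 (now NSD2), at 0.12, 0.14 and 0.16. The median over all other genes was 0.71 for CBL, 0.52 for CBLB and 0.77 for CBLC. The genes named above were picked as the closest, so pairs within the family are set beside the medians instead. CBL and CBLC stood at 0.43, below both of their medians, and CBLB and CBLC at 0.81, above both. CBL and CBLB stood at 0.56, below the median for CBL and above that for CBLB. These values describe 9 libraries that share their replicate numbers, which hold most of each gene's variation.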

How the data were processed

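The file the authors deposited holds unnormalized counts for each sgRNA in the 9 libraries. Per the submitters' processing notes, cutadapt 1.18 and MAGeCK 0.5.8 were used and hg19 was named. Their settings and filters were not given in these sources. The 3 member genes, the gene lists and the tests were chosen with earlier results of these data known. Any guide or gene with at least 10 counts in at least 3 libraries was tested: 10337 guides, and 1117 genes by the sum of all their guides. Each pair of doses was fitted on its 6 libraries with edgeR 4.0.16 (TMM, robust quasi-likelihood test, R 4.3.3), with Benjamini-Hochberg adjustment over all features and a threshold of 0.05. SEs and 95% intervals were derived from that test. DESeq2 1.42.0 and limma 3.58.1, on log2(CPM + 1), served as alternatives. The test was tried on simulated data with log2 fold changes of 3 in either direction. Recovery was required only at a spread narrower than in the fits without the replicate block here. That spread was also narrower than in the fits of guides with the block.

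The replicate numbers were taken to pair the libraries. Over 9 pairs of same-numbered libraries, the correlation of what remained after subtracting each dose mean was 0.67 to 0.78 across tested guides (0.55 to 0.88 over the 30 family guides), above the 0.1 set as the rule. The pairing comes from the numbers in the titles, and what they mark is not stated. The common biological coefficient of variation of summed genes at 1500 against 0 µM fell from 0.417 without the replicate block to 0.187 with it, and that of guides from 1.07 to 0.548.

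Named were, per member gene and comparison with 0 µM, the guide of lowest p in each direction, each gene's most abundant guide, up to 3 genes of lowest p per list, and the 3 genes of most similar pattern; other family guides were chosen after their values were seen.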

Additional observations from a re-analysis of the deposited data

How the results depend on the processing

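No sum of CBL, CBLB or CBLC guides and no single family guide passed its threshold under any alternative run, and the lowest adjusted p of a sum was 0.727, for CBLB at 1500 against 0 µM without the most abundant guides and with the replicate block. The block changed no call of the family. The signs of the sums were less stable: of 90 values from alternatives that keep all libraries, 12 turned. At 1500 against 0 µM, CBLC turned without the most abundant guide of each gene (0.081, and 0.061 with the replicate block, an alternative chosen after seeing the data). The others were at 1500 against 200 µM. With library totals in place of TMM, CBL had -0.093 and CBLC -0.017; this scaling moved the median of all genes from -0.01 to -0.15. By limma on the mean of guide log2 values CBL had -0.22 and CBLB 0.22, with or without the block. Without the most abundant guide CBL had -0.025 and CBLB 0.073, and -0.039 and 0.085 with the block. Among the guides named for the lowest p, CBLC.1 (-0.46) and CBLC.9 (0.025) turned with the replicate block at 1500 against 0 µM. Other family guides turned with the block too. Examples are CBLC.2 (-0.91 to 0.20) and CBLC.3 (0.16 to -0.40) at 1500 against 0 µM, and CBL.1 (-0.83 to 0.18) at 200 against 0 µM. The CBLC to CBL ratio at 200 against 0 µM turned to 0.0086 without the most abundant guides. The cause of these turns was not tested.

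With each library left out in turn, the sums at 1500 against 0 µM ranged from -0.46 to 0.23 for CBL, 0.03 to 0.60 for CBLB and -0.66 to 0.61 for CBLC. At 200 against 0 µM they ranged from -0.55 to 0.15, -0.0059 to 0.65 and -0.76 to 0.48, and at 1500 against 200 µM from -0.17 to 0.39, -0.17 to 0.20 and -0.38 to 0.62. Leaving 1 library out unbalances the replicate numbers. Depth limits what a count of 0 shows, since it allows 1.06 to 1.83 CPM.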
